A study of Mus musculus with 6 samples.

Results

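The retinoid genes described here are Stra6, Lrat, Rdh10, Dhrs3, Aldh1a1, Aldh1a2, Aldh1a3, Cyp26b1 and Rarb, 9 genes of the 21900 in the table of expression values. They were taken by gene symbol, and all 9 were found once each. Lung RNA was sequenced in 6 mouse libraries, with 3 libraries labelled Cyp1b1 KO and 3 labelled Wild Type at the gene for the cytochrome P450 enzyme CYP1B1. All 6 come from mice on a high fat diet for 10 weeks, so no group ate another diet. Each label holds 2 females (replicates 1 and 2) and 1 male (replicate 3). The sources used here do not give strain, age, the design of the knockout allele or whether each library is a separate animal, and p-values therefore measure only how these libraries spread. The unit is CPM (reads of a gene per 1000000 assigned reads), and the depth estimated from the smallest steps between values was 20210000 to 27570000 assigned reads per library. The level worth 3 reads was 0.109 to 0.148 CPM, which covers counting error only.

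Retinoids are vitamin A and its derivatives. Retinol enters cells through the receptor STRA6 and is stored as esters made by LRAT. RDH10 oxidises retinol to retinaldehyde, DHRS3 reduces it back, and the ALDH1A dehydrogenases turn retinaldehyde irreversibly into retinoic acid. Retinoic acid binds the nuclear receptors RARA, RARB and RARG, which act with RXR partners on nearby genes, and CYP26 enzymes break it down. In the lung, fibroblasts with lipid droplets store retinyl esters, and retinoic acid acts in the formation of alveoli. CYP1B1 can oxidise retinol and retinaldehyde in vitro, which links the knockout to this pathway.

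The targeted gene was higher in the libraries labelled Cyp1b1 KO, so the text keeps the word labelled throughout. Cyp1b1 was at 51.2, 56.1 and 48.4 CPM in labelled knockout 1, 2 and 3, against 12.5, 19.0 and 18.5 CPM in labelled Wild Type 1, 2 and 3 (limma adjusted p = 0.0588, with 0.0197 to 0.683 over 15 alternatives, of which 5 passed). Gene-level values cannot say which exons were read, so exchanged labels and reads from a disrupted allele cannot be told apart. An exchange would turn the sign of each difference between the labels given here. The 2 male libraries also stood apart in the cell type markers. Neutrophil markers summed to 4615 CPM in the male labelled knockout, against 82.2 to 129 CPM in the females of that label. Dendritic cell markers summed to 8099 CPM in labelled Wild Type 3, the male, and to 2622 and 2184 CPM in the females of that label. Most of each sum came from H2-Aa, H2-Ab1 and Cd74. The remaining marker, Flt3, differed less, at 13.87 CPM in that male and 7.118 and 7.517 CPM in those females.

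The sequences below are windows of 250 bases up to the start of transcription, given 5′ to 3′ on the gene's own strand. They come from RefSeq (build GRCm38.p6, the assembly that mm10 names). Rarb is shown because its window holds a retinoic acid response element, Cyp26b1 because it had the widest difference between the labels, and Aldh1a2 because it was the 1 gene of the 9 past a test. Capitals mark each copy of the hexamers bound by retinoic acid receptors, searched on both strands. These were AGGTCA, the variant AGTTCA, and both with G as the first base (GGGTCA and then GGTTCA). Rarb lies on the minus strand at chr14:16575477-16575726, Cyp26b1 on the minus strand at chr6:84593811-84594060 and Aldh1a2 on the plus strand at chr9:71215539-71215788. The last part of the Cyp26b1 window lies inside the gene bounds given below, which begin at an earlier start.
Rarb: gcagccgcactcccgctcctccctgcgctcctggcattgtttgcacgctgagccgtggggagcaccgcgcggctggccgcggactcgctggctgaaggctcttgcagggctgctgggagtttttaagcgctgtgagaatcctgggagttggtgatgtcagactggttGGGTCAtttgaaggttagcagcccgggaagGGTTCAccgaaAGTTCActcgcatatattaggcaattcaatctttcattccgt
Cyp26b1: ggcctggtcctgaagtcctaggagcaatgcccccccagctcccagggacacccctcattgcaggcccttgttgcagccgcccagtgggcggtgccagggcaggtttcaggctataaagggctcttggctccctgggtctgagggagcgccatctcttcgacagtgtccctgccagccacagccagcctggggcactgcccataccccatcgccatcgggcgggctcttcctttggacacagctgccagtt
Aldh1a2: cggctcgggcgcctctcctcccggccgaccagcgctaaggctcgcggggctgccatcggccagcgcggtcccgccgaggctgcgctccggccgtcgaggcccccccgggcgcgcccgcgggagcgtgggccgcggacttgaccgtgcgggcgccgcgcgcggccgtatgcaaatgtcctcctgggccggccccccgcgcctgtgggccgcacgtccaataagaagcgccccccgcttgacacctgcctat

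The Rarb window holds 3 of these hexamers. A pair of them forms the direct repeat with a spacer of 5 bases (DR5), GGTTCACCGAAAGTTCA, which begins 53 bases before the start of transcription and is the element through which retinoic acid is known to act on this promoter. Of 32851 promoter windows of that length in the table, 29 (0.0883%) hold a DR5 of these hexamers, and 38.6% hold at least 1 hexamer. RefSeq windows were matched for 7 of the 9 genes, 13 windows in all, since some genes have several starts. No other window of the 7 holds a repeat spaced by 1, 2 or 5 bases, and 1 of the 2 windows of Aldh1a1 holds a single hexamer. Rdh10 and Aldh1a3 were not matched. A match is a run of letters and not a measured binding site, and these windows leave out elements farther away.

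Per length, Aldh1a1 was the most abundant of the 9 genes in all 6 libraries and Stra6 the least. Levels of different genes are compared here as CPM per kb of annotated exon. Aldh1a1 averaged 264.4 ± 35.5 CPM per kb (SD, n = 6) and Dhrs3 34.8 ± 7.0 CPM per kb. Lrat at 14.5 ± 5.23, Aldh1a2 at 13.3 ± 4.12, Cyp26b1 at 9.18 ± 4.48 and Rdh10 at 8.14 ± 1.10 CPM per kb followed, and the ranges of neighbours in this run of 4 overlapped. Rarb averaged 1.47 ± 0.527, Aldh1a3 0.296 ± 0.048 and Stra6 0.107 ± 0.06 CPM per kb, with no overlap between neighbours.

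**Figure D1:**
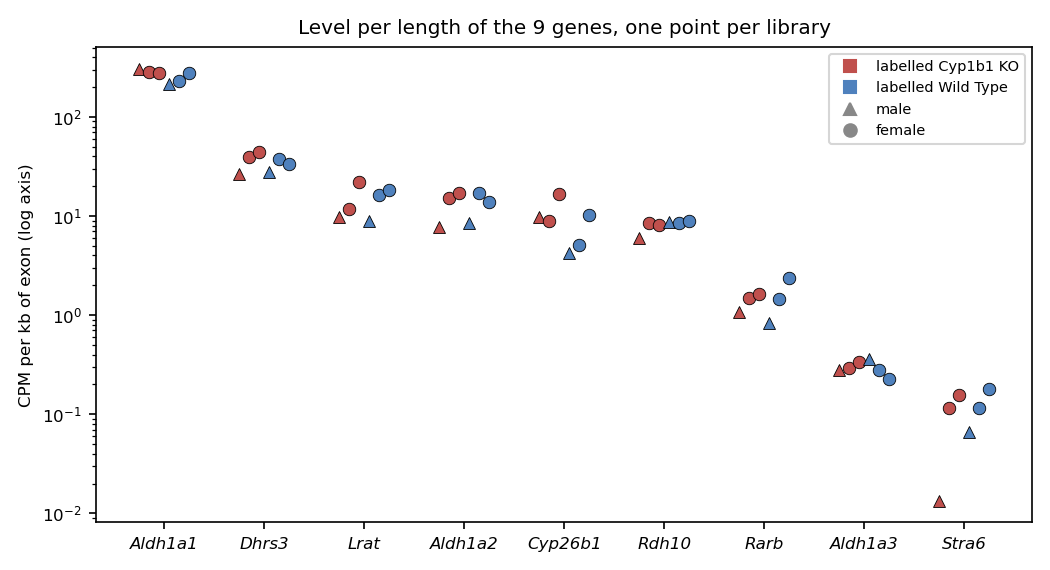
Level of each gene per length (CPM per kb of exon, log axis) in the 6 lung libraries, with 1 point per library, colour for the genotype label and triangles for males. Aldh1a1 lies above all other genes, Lrat, Aldh1a2, Cyp26b1 and Rdh10 overlap, and Stra6 is lowest, with the male labelled knockout at 0.0134 CPM per kb.

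Of the 9 genes, 0 passed the test between the genotype labels, at an adjusted p under 0.05 in limma over all 17382 genes whose mean was at least 0.5 CPM. The same fit called 2 genes in all, or 0.0115% of those tested. In the 4 females alone, without the males that stood apart, 0 of the 9 passed as well. At an unadjusted p under 0.05 there was 1 of the 9 genes, Cyp26b1, beside 5.13% of all genes tested in either direction and 1.8% higher in labelled knockout libraries, as Cyp26b1 was. The median log2 difference of the 9 genes, labelled knockout minus labelled Wild Type on the log2(CPM + 0.5) scale, was -0.001, beside -0.056 for all genes tested. Of the 9, 5 had a lower fitted level in labelled knockout libraries, beside 59.9% of all genes tested, and 2 of the 9 under either quantile normalization or median centring, beside 48.2% and 42.1% in that order. The CPM ranges of the labels did not overlap for 2 of the 9, Aldh1a1 and Rdh10, where 9.52% of all genes tested had such ranges.

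**Figure D2:**
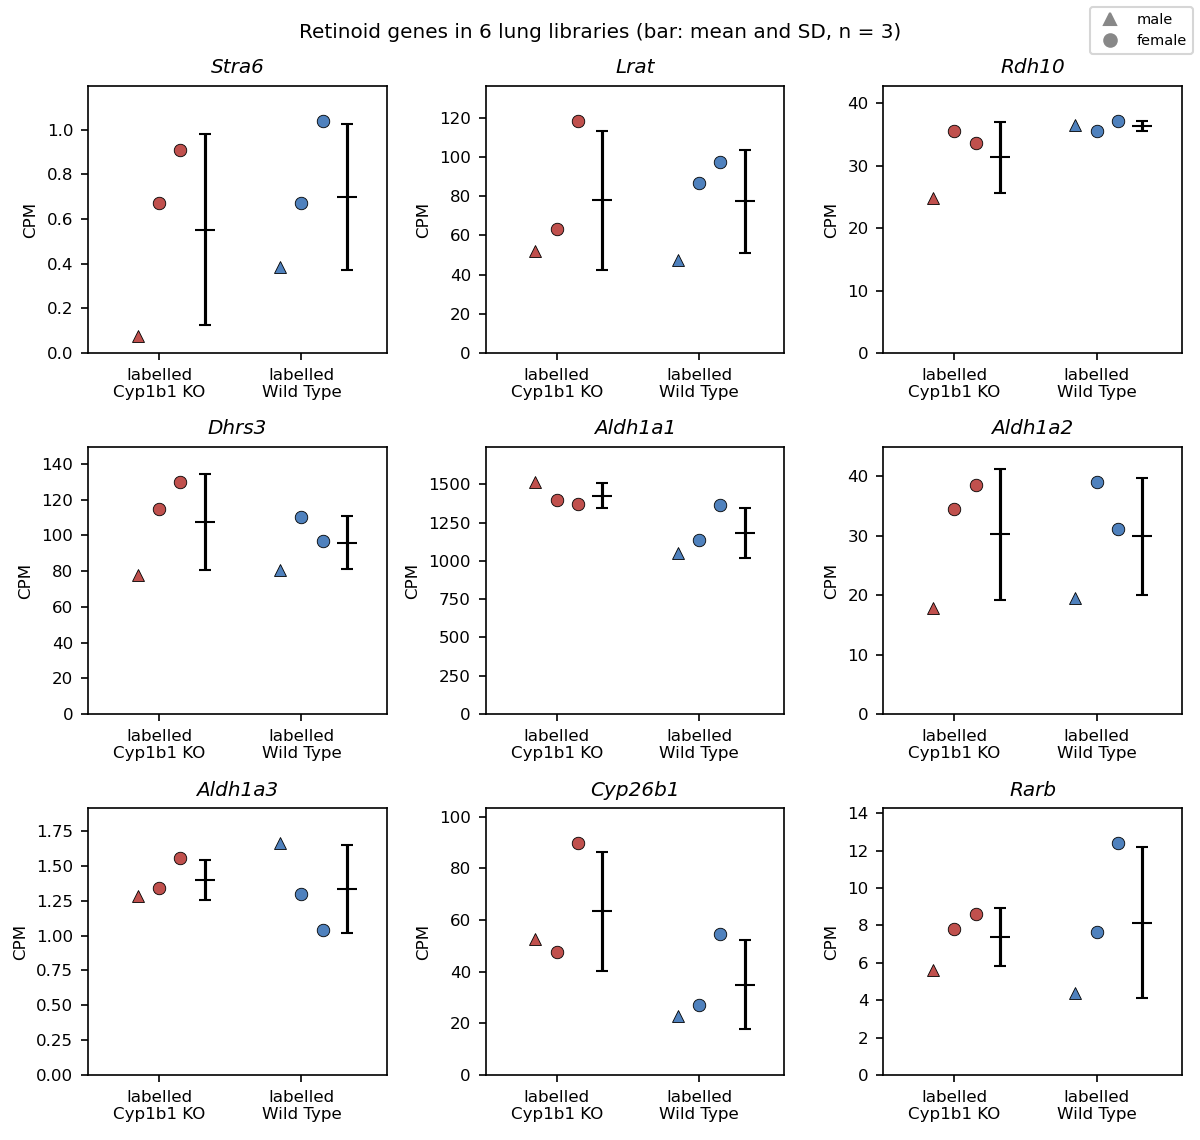
CPM of each gene in the 6 libraries, with the 3 libraries labelled Cyp1b1 KO left of the 3 labelled Wild Type, triangles for males, circles for females, and a bar for the mean and SD of each label (n = 3). The labels overlap in every panel but those of Aldh1a1 and Rdh10, and the triangles lie lowest within their label for Stra6, Lrat, Dhrs3, Aldh1a2 and Rarb.

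Uptake and storage were represented by Stra6 and Lrat. Stra6 (ENSMUSG00000032327, mm10 chromosome 9, 58063788 to 58153996, plus strand), the membrane receptor for retinol bound to its plasma carrier, was at 0.672, 0.906 and 0.0781 CPM in labelled knockout 1, 2 and 3, against 0.670, 1.04 and 0.384 CPM in labelled Wild Type 1, 2 and 3. The value of the male labelled knockout was below the level worth 3 reads (0.117 CPM in that library), so Stra6 was barely detectable there at this depth. The labels overlapped, with a log2 difference of -0.25 (95% interval -1.06 to 0.57, limma adjusted p = 0.864). The difference was -0.54 and -0.15 with pseudocounts of 0.1 and 1, -0.41 without labelled Wild Type 1, -0.37 without labelled knockout 2 and -0.06 without either male.

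Lrat (ENSMUSG00000028003, chromosome 3, 82892579 to 82903973, minus strand), which esterifies retinol for storage, was at 63.3, 118.5 and 52.1 CPM in labelled knockout 1, 2 and 3, against 86.9, 97.6 and 47.7 CPM in labelled Wild Type 1, 2 and 3. Its highest and second lowest values both came from the label Cyp1b1 KO. The means were 78.0 ± 35.6 and 77.4 ± 26.2 CPM (SD, n = 3 each) in labelled knockout and labelled Wild Type libraries. The log2 difference was -0.02 (95% interval -0.51 to 0.47, limma adjusted p = 0.988), and it turned positive under quantile normalization and median centring.

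Rdh10 and Dhrs3 act in opposite directions between retinol and retinaldehyde. Rdh10 (ENSMUSG00000025921, chromosome 1, 16105774 to 16133734, plus strand), the oxidising enzyme, was at 35.53, 33.7 and 24.8 CPM in labelled knockout 1, 2 and 3, against 35.55, 37.2 and 36.5 CPM in labelled Wild Type 1, 2 and 3. The labels were kept from overlapping only by the small gap between labelled knockout 1 and labelled Wild Type 1, and the male labelled knockout was the lowest library. The log2 difference was -0.23 (95% interval -0.55 to 0.10, limma adjusted p = 0.775), and -0.07 without either male.

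Dhrs3 (ENSMUSG00000066026, chromosome 4, 144892827 to 144928209, plus strand), the reducing enzyme, was at 114.8, 130.0 and 77.7 CPM in labelled knockout 1, 2 and 3, against 110.3, 97.0 and 80.5 CPM in labelled Wild Type 1, 2 and 3. The males were lowest within each label, and the labels overlapped. The log2 difference was 0.14 (95% interval -0.13 to 0.41, limma adjusted p = 0.778), with 0.24 without either male and 0.06 without labelled knockout 2 or labelled Wild Type 2. Per kb of exon, Dhrs3 exceeded Rdh10 in every library, by 4.59, 5.49 and 4.45 times in labelled knockout 1, 2 and 3 and by 4.41, 3.71 and 3.13 times in labelled Wild Type 1, 2 and 3.

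Of the 3 retinaldehyde dehydrogenases, Aldh1a1 made up nearly all of the summed level. Aldh1a1 (ENSMUSG00000053279, chromosome 19, 20492715 to 20643465, plus strand) was at 1395, 1369 and 1516 CPM in labelled knockout 1, 2 and 3, against 1135, 1366 and 1052 CPM in labelled Wild Type 1, 2 and 3. All 3 labelled knockout libraries lay above all 3 labelled Wild Type libraries, though labelled knockout 2 exceeded labelled Wild Type 2 only narrowly. The means were 1427 ± 78.1 and 1184 ± 163 CPM (SD, n = 3 each) in labelled knockout and labelled Wild Type libraries, a ratio of 1.204. The log2 difference was 0.28 (95% interval -0.08 to 0.63, limma adjusted p = 0.775), and 0.15 without either male. Reads of Aldh1a1 can be shared with its close copy Aldh1a7, which had 126, 114 and 97.1 CPM in labelled knockout 1, 2 and 3 and 112, 147 and 87.3 CPM in labelled Wild Type 1, 2 and 3.

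Aldh1a2 (ENSMUSG00000013584, chromosome 9, 71215789 to 71296243, plus strand), the main enzyme of retinoic acid synthesis in the embryo, was at 34.4, 38.5 and 17.7 CPM in labelled knockout 1, 2 and 3, against 39.0, 31.0 and 19.5 CPM in labelled Wild Type 1, 2 and 3. The labels overlapped over nearly all of their ranges, while the males of both labels were well below the females. The log2 difference between the labels was -0.001, which turned positive under quantile normalization and median centring (95% interval -0.34 to 0.33, limma adjusted p = 0.9997).

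Aldh1a3 (ENSMUSG00000015134, chromosome 7, 66390890 to 66427517, minus strand) was low, at 1.34, 1.56 and 1.29 CPM in labelled knockout 1, 2 and 3, against 1.30, 1.04 and 1.66 CPM in labelled Wild Type 1, 2 and 3. The labels overlapped, with a log2 difference of 0.06 (95% interval -0.65 to 0.77, limma adjusted p = 0.968). Of the level of the 3 genes summed per kb, Aldh1a1 held 94.1% to 97.4% in labelled knockout and 92.9% to 96.0% in labelled Wild Type libraries. Aldh1a2 held 2.49% to 5.77% in labelled knockout and 3.87% to 6.97% in labelled Wild Type libraries, with the lowest share of each label in its male. Aldh1a3 stayed at or below 0.162% in each library.

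Cyp26b1 had the widest difference between the labels among the 9 genes. Cyp26b1 (ENSMUSG00000063415, chromosome 6, 84571414 to 84593908, minus strand), which oxidises retinoic acid for removal and is itself induced by retinoic acid, was at 47.5, 89.8 and 52.8 CPM in labelled knockout 1, 2 and 3, against 27.3, 54.6 and 22.9 CPM in labelled Wild Type 1, 2 and 3. Labelled Wild Type 2 lay above labelled knockout 1 and 3, so the labels overlapped. The means were 63.4 ± 23.1 and 34.9 ± 17.2 CPM (SD, n = 3 each) in labelled knockout and labelled Wild Type libraries, a ratio of 1.82.

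The log2 difference of Cyp26b1 was 0.90 with a standard error of 0.30 (95% interval 0.20 to 1.59), which did not pass (unadjusted p = 0.0179, limma adjusted p = 0.775). It was positive in the females alone (0.75) and between the males (1.19). Mucous secretory markers, 1 of 19 marker lists, were uneven in the same libraries. Their 4 genes (Muc5b, Muc5ac, Bpifa1 and Reg3g) summed to 613, 968 and 782 CPM in labelled knockout 1, 2 and 3, against 124, 1175 and 454 CPM in labelled Wild Type 1, 2 and 3. The sum was highest in labelled Wild Type 2, while Cyp26b1 was highest in labelled knockout 2. Labelled Wild Type 1 and 3 were lowest in both this sum and Cyp26b1. They were also lowest for Bpifa1 (32.6 and 161 CPM) and Muc5ac (3.43 and 3.59 CPM), but labelled Wild Type 3 was not among the lowest pair for Muc5b (244 CPM, against 222 CPM in labelled knockout 3) or Reg3g (45.5 CPM, against 18.2 CPM in labelled knockout 3). The part of these cells in the Cyp26b1 values was not tested.

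Rarb (ENSMUSG00000017491, chromosome 14, 16430839 to 16819156, minus strand), a retinoic acid receptor with the DR5 printed above, was at 7.82, 8.63 and 5.64 CPM in labelled knockout 1, 2 and 3, against 7.67, 12.4 and 4.37 CPM in labelled Wild Type 1, 2 and 3. The printed window belongs to a start of transcription inside these gene bounds. Gene-level CPM cannot say from which start the reads come. The highest and the lowest of the 6 values both came from labelled Wild Type libraries. The log2 difference was -0.05, which turned positive under quantile normalization and median centring (95% interval -0.64 to 0.55, limma adjusted p = 0.969). Of its 5265 bases of annotated exon, 1793 overlap exons of Top2b and 227 those of Gm48162, both on the other strand. The strand setting is not given, so reads of these genes and Rarb cannot be told apart there. Top2b, a DNA topoisomerase, was at 157 to 169.5 CPM in labelled knockout and 151 to 164 CPM in labelled Wild Type libraries. By sex, Top2b had 157.1 and 151.1 CPM in the males (labelled knockout, labelled Wild Type) and 157.8 to 169.5 CPM in the females.

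Between the sexes, 1 of the 9 genes passed, Aldh1a2, which fell in males. The fit called 145 genes (0.834%) between the sexes, of which 36 (0.207%) were lower in males. Of the 9 genes, 8 had a lower fitted level in males, beside 57.4% of all genes tested, and the median log2 difference, male minus female, was -0.52, beside -0.052 for all genes. Both males lay below all 4 females for 5 of the 9 (Stra6, Lrat, Dhrs3, Aldh1a2 and Rarb), where 14.7% of all genes tested did so, and both above them for 0 of the 9, beside 9.28%. These 5 genes also had an unadjusted p under 0.05, beside 15.3% of all genes tested. With 2 males, 1 per label, sex cannot be told apart from other differences shared by these 2 lungs.

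**Figure D3:**
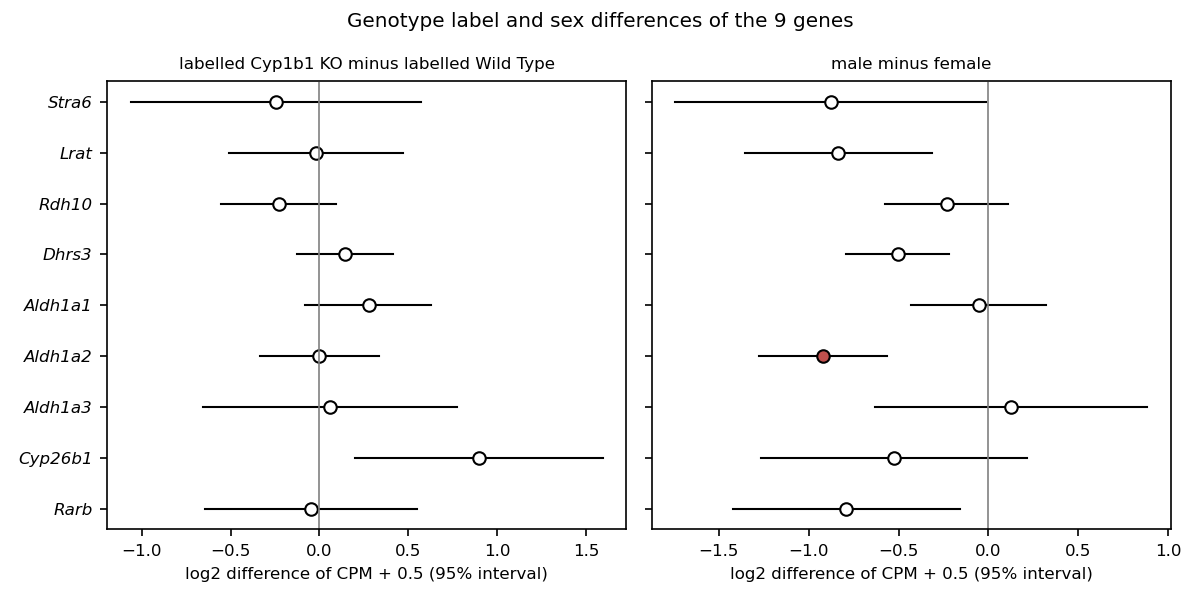
Fitted log2 differences of CPM + 0.5 with 95% intervals for the 9 genes, on the left labelled Cyp1b1 KO minus labelled Wild Type and on the right male minus female (6 libraries). The filled point, Aldh1a2 between the sexes, is the 1 difference past the adjusted threshold; Cyp26b1 has the widest label difference at 0.90.

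In males, Aldh1a2 was at 17.7 CPM (labelled knockout) and 19.5 CPM (labelled Wild Type), while the 4 females ranged from 31.0 to 39.0 CPM. The males, of different labels, lay close together and clear of all females. The log2 difference was -0.92 with a standard error of 0.15 (95% interval -1.27 to -0.56, limma adjusted p = 0.0446). The call ended without any 1 of labelled knockout 1, 2 or 3 or labelled Wild Type 1 or 2, with adjusted p up to 0.199, while the difference stayed between -1.003 and -0.82.

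Stra6 in the 2 males, at 0.0781 and 0.384 CPM, was below its female range of 0.670 to 1.04 CPM (log2 -0.88, SE 0.38, limma adjusted p = 0.322). That difference was -1.63 and -0.57 with pseudocounts of 0.1 and 1, and -0.60 without labelled knockout 3, so its size depends on these choices. Male Lrat values of 52.1 and 47.7 CPM compared with 63.3 to 118.5 CPM among females (log2 -0.83, SE 0.23, limma adjusted p = 0.137). The sexes were also apart for the next pair of genes. Male Dhrs3 values were 77.7 and 80.5 CPM and female ones 97.0 to 130.0 CPM (log2 -0.51, SE 0.12, limma adjusted p = 0.113), and it passed without labelled Wild Type 3 (limma adjusted p = 0.0459). For Rarb, whose exons partly overlap those of Top2b, the males had 5.64 and 4.37 CPM and the females 7.67 to 12.4 CPM. Its log2 difference was -0.79 (SE 0.27, limma adjusted p = 0.225), and -0.51 without labelled Wild Type 3. In these 4 genes the sexes did not overlap, yet the fit over all genes did not call them.

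Aldh1a1 ranged from 1052 to 1516 CPM in the males and from 1135 to 1395 CPM in the females, so the males held both extremes. Its log2 difference between the sexes was -0.06 (95% interval -0.43 to 0.32), and that of Rdh10 was -0.23 (-0.58 to 0.11). Cyp26b1 differed by -0.52 between the sexes (95% interval -1.26 to 0.22, limma adjusted p = 0.489), and by -0.28 and -0.30 without labelled Wild Type 2 and 3. Aldh1a3, with male values of 1.29 and 1.66 CPM and female values of 1.04 to 1.56 CPM, was the 1 gene with a fitted level above that of females (log2 difference 0.13).

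Summed markers of several cell types were also at lower levels in the males. Those of other types overlapped between the sexes. Endothelial markers, as an example, summed to 3373 and 2285 CPM in males (labelled knockout, labelled Wild Type) and to 2714 to 3453 CPM in females. Of these 6 markers, 0 were lower in both males than in all females. Beside the marker counts that follow, 14.7% of all genes tested had both males below all 4 females. Markers of mesothelial cells, lining cells known to express Aldh1a2, summed to 349.6 and 306 CPM in males (labelled knockout, labelled Wild Type) and to 379.5 to 484 CPM in females, with 0 of 9 below the level worth 3 reads in any library. Of these, 4 had both males below all females, and 1, the urothelial plaque gene Upk3b, passed the test between the sexes (limma adjusted p = 0.0211). Wt1 and Bnc1, which also define these cells, overlapped between the sexes, with 6.004 and 4.82 CPM of Wt1 in males and 3.56 to 5.87 CPM in females.

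Ciliated cell Tppp3 and smooth muscle Tagln also passed, both lower in males (limma adjusted p = 0.0288 and 0.0335), and the erythroid gene Alas2 was higher (0.0393). Smooth muscle markers summed to 951 and 871 CPM in males and to 1108 to 1630 CPM in females, with 3 of 6 lower in both males. Of the alveolar type 2 markers, 4 of 5 were lower in both males.

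Alveolar fibroblast markers summed to 3322 and 2771 CPM in the same males and to 3580 to 4520 CPM in females, with 4 of 9 lower in both males than in all females and 0 past the test. Pdgfra and Tcf21, of this list, overlapped between the sexes, and Pdgfra was highest in the male labelled knockout (396.9 CPM). Club cell markers summed to 12960 and 17890 CPM in males and to 24030 to 28770 CPM in females, with 2 of 3 lower in both males. Ciliated cell markers summed to 340.5 and 517 CPM in males and to 692.5 to 797 CPM in females, with 3 of 4 lower in both males. Neutrophil markers summed to 4615 and 189 CPM in males and to 76.9 to 139 CPM in females. The part of these cell types in the sex differences of the 9 genes was not tested, and in bulk lung RNA fewer cells of a type and less RNA per cell cannot be told apart.

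**Figure D4:**
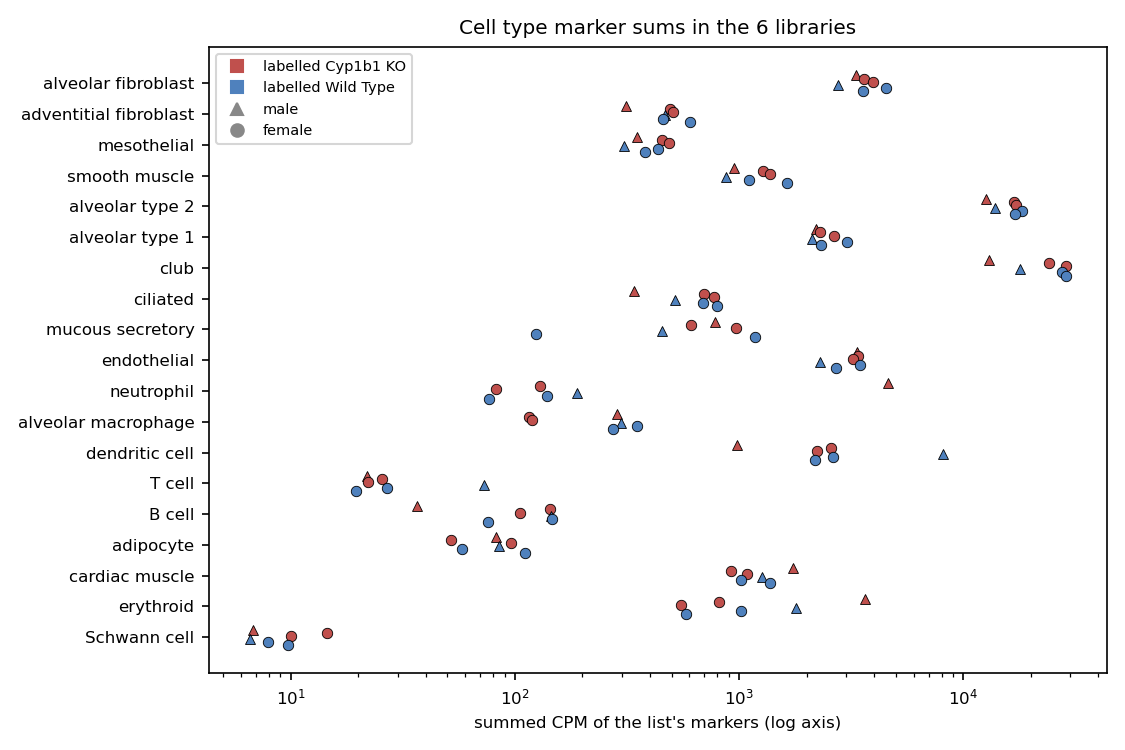
Summed CPM of the markers of 19 cell types (log axis) in the 6 libraries, coloured by genotype label, with triangles for males. The male labelled knockout is far highest for neutrophil markers (4615 CPM) and lowest for B cell markers (36.7 CPM). For dendritic cell markers, by CPM mostly H2-Aa, H2-Ab1 and Cd74, the male labelled Wild Type is highest (8099 CPM) and the male labelled knockout lowest (981 CPM). Both males lie below all females for club cell markers and above them for erythroid markers.

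The difference between the labels was also set against itself across the sexes. By the interaction term of limma, 0 of the 9 genes passed, beside 2.54% of all genes tested (0.702% positive and 1.84% negative). At an unadjusted p under 0.05 there were 0 of the 9, beside 17.9% of all genes tested, and 5 of the 9 interactions were negative, beside 60.5%. The lowest unadjusted p was that of Rdh10 (0.0739, limma adjusted p = 0.331), whose labels differed by -0.55 between the males and by -0.07 between the females. With 1 male per label, the intervals were wide, as for Cyp26b1, whose interaction of 0.44 had a 95% interval from -0.95 to 1.83.

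The other genes of the pathway were counted in 7 lists with 60 genes, of which 55 were found in the table and 49 were tested. Between the labels, 0 of the 49 passed limma in either direction, and 3 (Adh1, Hoxb4 and Hoxa5) had an unadjusted p under 0.05, beside 5.13% of all genes tested. Between the sexes, 1 of the 49 passed, Adh1, which was lower in males, and 0 were higher, beside 0.207% and 0.627% of all genes tested. At an unadjusted p under 0.05 there were 13 of the 49 between the sexes, beside 15.3%. By the interaction term, 4 of the 49 passed (8.16%), beside 2.54% of all genes tested. The medians of the log2 differences over the 49 were -0.009 between the labels and -0.051 between the sexes, beside -0.056 and -0.052 for all genes tested.

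**Figure D5:**
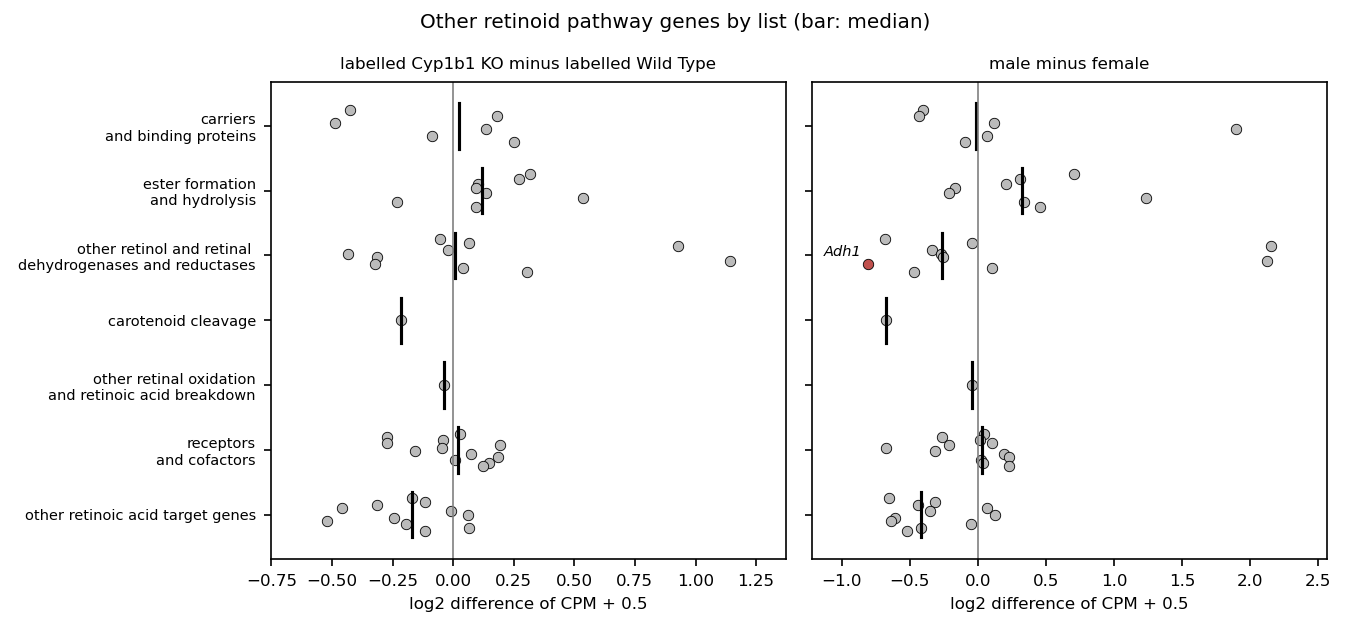
Log2 differences of CPM + 0.5 of the other retinoid pathway genes tested, by list, on the left labelled Cyp1b1 KO minus labelled Wild Type and on the right male minus female (6 libraries), with a bar for the list's median. The red point, Adh1, is the gene past the adjusted threshold, lower in males.

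Among carriers and binding proteins, 0 of 6 tested passed in either comparison. Fabp5, a fatty acid binding protein that also carries retinoic acid, was at 45.7, 50.7 and 25.8 CPM in labelled knockout 1, 2 and 3, against 44.2, 40.8 and 92.8 CPM in labelled Wild Type 1, 2 and 3. The males held the lowest and the highest value, and the labels overlapped (limma adjusted p = 0.775). Rbp4, the plasma carrier of retinol, averaged 14.8 CPM in labelled knockout and 19.4 CPM in labelled Wild Type libraries (limma adjusted p = 0.775), and the lipid transporters Cd36 and Scarb1 averaged 1111 and 78.5 CPM in labelled knockout and 940.2 and 83.3 CPM in labelled Wild Type libraries.

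Among genes of ester formation and hydrolysis, 0 of 8 passed in either comparison, and the median differences were 0.12 between the labels and 0.32 between the sexes. Lpl, which releases fatty acids and retinol from plasma lipids, was at 229, 224 and 1030 CPM in labelled knockout 1, 2 and 3, against 232, 254 and 295 CPM in labelled Wild Type 1, 2 and 3. The male labelled knockout was far above the other 5 libraries, and in the 4 females the difference between the labels was -0.097. Ces1d, a carboxylesterase with close copies in its family, averaged 611 CPM in labelled knockout and 560.0 CPM in labelled Wild Type libraries. Lipe, the hormone-sensitive lipase, averaged 115 and 92.7 CPM, and the lysosomal lipase Lipa 83.0 and 98.8 CPM, in labelled knockout and labelled Wild Type libraries. Both had their highest value in a male, Lipe in labelled knockout 3 (150.9 CPM) and Lipa in labelled Wild Type 3 (123.9 CPM). In the 4 females the label differences of Ces1d, Lipe and Lipa were 0.047, 0.051 and -0.113, while the list medians include the males.

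Among the other retinol and retinaldehyde dehydrogenases and reductases, 0 of 10 passed between the labels and Adh1 passed between the sexes. Adh1, an alcohol dehydrogenase that accepts retinol, had 48.0 and 72.6 CPM in males and 97.0 to 114 CPM in females (log2 -0.81, SE 0.12, limma adjusted p = 0.0345). The males did not overlap the females, and the call ended without any 1 of labelled knockout 1 or 2 or labelled Wild Type 1 or 2, with adjusted p up to 0.180, while the difference ran from -1.01 to -0.605 with 1 library left out. Rdh12, a retinaldehyde reductase, was at 3.002, 1.67 and 22.9 CPM in labelled knockout 1, 2 and 3, against 1.68, 1.78 and 4.70 CPM in labelled Wild Type 1, 2 and 3, so that the male labelled knockout was far above the rest (limma adjusted p = 0.775 between the labels). Adh5, another alcohol dehydrogenase, averaged 44.3 CPM in labelled knockout and 43.1 CPM in labelled Wild Type libraries. The list of carotenoid cleavage and that of other retinaldehyde oxidation and retinoic acid breakdown had 1 gene tested each, and 0 passed. The carotenoid oxygenase Bco2 averaged 2.29 and 2.5 CPM, and the aldehyde oxidase Aox1 46.0 and 47.9 CPM, in labelled knockout and labelled Wild Type libraries.

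Of 12 receptors and cofactors, 0 passed in either comparison. The receptor Rarg averaged 90.5 CPM in labelled knockout and 108 CPM in labelled Wild Type libraries, and the partner receptor Rxrb 46.3 and 56.6 CPM (limma adjusted p = 0.775 each). The corepressor Ncor1 averaged 199.6 CPM in labelled knockout and 175.6 CPM in labelled Wild Type libraries, and the nuclear receptor Nr2f2 averaged 114.8 and 128.2 CPM.

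Of 11 other genes known to respond to retinoic acid, 0 passed in either comparison. Between the labels, 9 had a fitted level below labelled Wild Type, with a median of -0.17 beside -0.056 for all genes, of which 59.9% were lower. Under quantile normalization and median centring 7 and 8 of the 11 were lower, with medians of -0.027 and -0.066, beside 48.2% and 42.1% of all genes. Between the sexes, 9 of the 11 were lower in males as well, beside 57.4% of all genes, with a median of -0.42. At an unadjusted p under 0.05 there were 4 of the 11, beside 15.3% of all genes tested. Hoxb4, a homeobox gene, was at 16.6, 16.8 and 16.3 CPM in labelled knockout 1, 2 and 3, against 22.6, 21.6 and 24.8 CPM in labelled Wild Type 1, 2 and 3. These labels did not overlap, with a log2 difference of -0.46 that did not pass (limma adjusted p = 0.775). Hoxa5, which acts in lung development, averaged 44.3 CPM in labelled knockout and 54.4 CPM in labelled Wild Type libraries, with limma adjusted p = 0.775. The transglutaminase Tgm2 averaged 529 and 503.6 CPM, and Rarres2, which encodes the chemoattractant chemerin, 60.3 and 80.3 CPM, in labelled knockout and labelled Wild Type libraries. The lowest Rarres2 value was that of the male labelled knockout (31.9 CPM), and the log2 difference of -0.52 was -0.15 without either male.

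For the 5 genes whose highest library was at least 2 times its lowest, the genes with the most similar profile over the 6 libraries were found by the root mean square difference of log2(CPM + 0.5) after centring each gene on its own mean. About 12910 genes with a mean of at least 5 CPM were compared, so small differences are found for many genes. Closest to Aldh1a2 were Mxra8 (0.093), Zfp689 (0.094) and Cttnbp2 (0.105). Closest to Rarb were Mmp3 (0.067), Efcab6 (0.081) and Ccdc13 (0.094). Closest to Stra6 were Tekt1 (0.062), Prr29 (0.079) and Cldn7 (0.081), but adding 0.5 CPM narrows a profile with a mean of 0.625 CPM, and the highest Stra6 library was 13.3 times the lowest, against 29.2 and 11.7 CPM for Tekt1.

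Lrat came nearest to Mfsd6l (0.137), Nek11 (0.154) and Cetn4 (0.162). Cyp26b1 had no close match, with Gm12840 at 0.255, Calml3 at 0.289 and Cpxm2 at 0.302. As an example, Mxra8 was at 436, 476 and 235 CPM in labelled knockout 1, 2 and 3, against 465.5, 388 and 288 CPM in labelled Wild Type 1, 2 and 3, with the males lowest as for Aldh1a2.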

How the data were processed

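Lung RNA of 6 mouse libraries was sequenced, and the authors deposited CPM per gene (counts per 1000000 reads assigned to genes, with 0.0001 added to each value), 1 column per library. The submitters' processing notes name mm10 as build and list TopHat2 and Partek, with no version or role. The sources used here do not give annotation, filters or strand setting. Of the low values, worth up to 100 reads, 82.2% to 83.4% per library were whole reads within 0.05, so whole reads could not be recovered, and count models were left out. A total of 21846 identifiers (99.75%) matched GENCODE M21, which gave positions and merged exon lengths.

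Tables were read with Python 3.11.15, pandas 2.3.3 and numpy 2.4.6 and plotted with matplotlib 3.10.9. limma 3.58.1 (R 4.3.3, variance trend) was fitted to log2(CPM + 0.5) of 17382 genes with a mean of at least 0.5 CPM, with genotype label and sex as terms, and again with their interaction. Such differences understate changes of low genes. Tests were two-sided, with Benjamini-Hochberg adjustment over all genes tested. The fit was also run on simulated counts with planted label differences, the same relative spread for all genes and no sex difference. That run does not cover libraries that stand apart, as the males did here. The 9 genes, lists and tests were chosen with earlier results of these data known. Some genes first placed in the pathway lists are not reported here, and the lists are counted without them. Pathway genes are named where they passed a test and, since none passed between the labels, as the 2 of smallest p there and the 2 of highest mean per list; marker genes appear only beside a result. Aldh1a7 and Top2b were chosen after their values could be seen, for their sequence or position. Alternatives were other pseudocounts (0.1 and 1), filters, scalings, moderation, no sex term, the 4 females and leaving out each library.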

Additional observations from a re-analysis of the deposited data

Results flagged for a closer look

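Of the 49 pathway genes tested, 4 (8.16%) had a difference between the labels that differed between the 2 males and the females by the interaction term of limma, beside 2.54% of all genes tested. With 1 male per label, the residual spread in this term came from the female pairs alone, moderated over all genes, so the p-values do not cover the spread between males of a label. In each case the value goes with 1 or both male libraries and cannot be told apart from a difference of single libraries. Lpl, a lipase of the ester list, differed by 1.80 between the males and by -0.097 between the females (log2, labelled Cyp1b1 KO minus labelled Wild Type), and the interaction was 1.90 (95% interval 1.495 to 2.304, limma adjusted p = 0.00144). Lpl reached 1030 CPM in labelled knockout 3, the male, while the other 5 libraries had 224 to 295 CPM. Dgat1, an acyltransferase of the same list, had 47.8 CPM in that library and 15.7 to 19.3 CPM in the others (interaction 1.68, limma adjusted p = 0.0191). Dhrs9, a dehydrogenase, had 34.6 CPM there and 2.03 to 4.01 CPM in the others (interaction 2.72, limma adjusted p = 0.0396). Dgat1 and Dhrs9 were named after their values were seen. Neutrophil markers summed to 4615 CPM in labelled knockout 3 and to 76.9 to 189 CPM in the other 5, and their part in these values was not tested.

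Fabp5, of the list of carriers, differed by -1.82 between the males and by 0.180 between the females, and the interaction was -2.005 (95% interval -2.51 to -1.496, limma adjusted p = 0.00343). Its male values were 25.8 CPM in the labelled knockout and 92.8 CPM in the labelled Wild Type library, while the females had 40.8 to 50.7 CPM. The 4 dendritic cell markers summed to 981 CPM in labelled knockout 3 and to 8099 CPM in labelled Wild Type 3, the other male. In the females they summed to 2184 to 2622 CPM. Most of each sum came from H2-Aa, H2-Ab1 and Cd74. The remaining marker, Flt3, differed less, at 6.705 CPM in labelled knockout 3 and 13.87 CPM in labelled Wild Type 3. In the females Flt3 had 6.852 to 8.378 CPM. The part of these markers in the Fabp5 values was not tested.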

How the results depend on the processing

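No paired analysis was possible because the labels carry no replicate numbers that pair libraries across the labels. Over 15 alternatives between the labels (14 for Stra6, which is not tested at a mean of at least 1 CPM), 0 of the 9 genes passed, and Stra6, Rdh10, Dhrs3, Aldh1a1 and Cyp26b1 kept their direction. Over these, Stra6 ranged from -0.54 to -0.06, Rdh10 from -0.30 to -0.07, Dhrs3 from 0.06 to 0.25, Aldh1a1 from 0.15 to 0.39 and Cyp26b1 from 0.66 to 1.22 (Cyp26b1 limma adjusted p from 0.598 to 1.0). Values near 0 changed sign for 3 genes under quantile normalization and median centring, in that order at 0.018 and 0.087 for Lrat, 0.089 and 0.103 for Aldh1a2 and 0.099 and 0.057 for Rarb; Aldh1a3 changed sign only when a library was left out. Aldh1a2 was at 0.064 in the 4 females. Leaving out 1 library at a time gave -0.25 to 0.26 for Lrat, -0.113 to 0.074 for Aldh1a2, -0.052 to 0.228 for Aldh1a3 and -0.24 to 0.20 for Rarb. Median centring moved the median of all genes between the labels from -0.056 to 0.047. The count of all genes called between the labels, 2 lower, was 6 (3 higher and 3 lower) with no filter, quantile normalization, median centring or robust moderation, 7 (3 higher and 4 lower) in the 4 females, and 1 to 4 with 1 library left out.

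Between the sexes, Aldh1a2 passed in 8 of 13 alternatives, at -1.02 to -0.82 with 1 library left out. The number of the 9 genes called was 0 to 2 with 1 library left out, and that of all genes 21 to 840; Dhrs3 ran from -0.65 to -0.36, Cyp26b1 from -0.75 to -0.28 and Rarb from -1.08 to -0.51. Stra6 ran from -1.63 to -0.57 over all alternatives. Leaving out either male left 1 male, so the sex differences and counts of those fits rest on that library. Changes of sign occurred for Rdh10 (-0.47 to 0.005), Aldh1a1 (-0.24 to 0.13) and Aldh1a3 (-0.13 to 0.38) with 1 library left out. The interaction of Aldh1a2 was 0.046 under quantile normalization and 0.030 under median centring, and with 1 library left out that of Lrat ran from -0.24 to 0.66 and that of Cyp26b1 from -0.057 to 0.932; neither male could be left out of that fit. Among named pathway genes, the label difference changed sign in the 4 females for Fabp5 (0.180), Cd36 (-0.042), Lpl (-0.097), Bco2 (0.180) and Tgm2 (-0.060), under median centring for Scarb1 (0.014) and Aox1 (0.068), and under quantile normalization for Aox1 (0.001). With 1 library left out Fabp5 ran from -0.722 to 0.180, Cd36 from -0.042 to 0.348, Lpl from -0.097 to 0.755, Bco2 from -0.352 to 0.180, Aox1 from -0.249 to 0.180 and Tgm2 from -0.060 to 0.144. The causes of these changes were not tested. A count test was not run, because whole reads were not recovered. Depth limits Stra6 and Aldh1a3, which lay near 1 CPM.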
